A study of Homo sapiens with 9 samples.

Results

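RNA-seq of HCT116, an established human colorectal carcinoma cell line, was searched for genes that were low when A20 was targeted and higher again when A20 was put back. A20 is the ubiquitin-editing enzyme encoded by TNFAIP3. In all, 93 protein-coding genes met the rule below, of 12262 protein-coding genes with a largest group mean of at least 0.5 FPKM (fragments scaled to transcript length and library size) and of 58735 genes in the table. The genes were selected on their measured values. With 0.1 added to each group mean, the ratio of labelled A20-KO to WT had to be at most 0.67, the ratio of A20-RE to A20-KO at least 1.5, and each A20-KO library had to lie below all the WT and A20-RE libraries. The same rule with the directions exchanged found 167 genes. The 3 groups held 3 libraries each. WT was the unmodified line. A20-KO carried a lentiviral CRISPR vector with a guide against TNFAIP3 and was selected with puromycin. A20-RE, which the labels call A20-OE, was A20-KO with A20 expressed again, so A20-RE and A20-KO share the targeting and WT lacks it. Whether A20-KO was 1 clone was not given in the sources used here. Nothing states that the replicates were separate cultures, so p-values measure only the spread between these libraries, which may be technical.

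A20 is induced by inflammatory signals and limits the NF-kB pathway by removing and adding ubiquitin chains on its signalling proteins, and it also restrains cell death. Colorectal epithelial cells use NF-kB and stress pathways to make defence proteins such as LCN2, a secreted lipocalin that binds bacterial siderophores and so withholds iron. KRT6A, the other gene used to mark the group, is a keratin that stratified epithelia switch on when wounded or stressed.

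Reads recovered as whole numbers from FPKM and gene length summed over genes to 23406222 to 24963691 in each library. The depth implied by the FPKM scale was not the same, from 22978140 in A20-RE replicate 3 to 25003361 in WT replicate 3. TNFAIP3 mRNA was at 0.869, 0.8 and 0.736 FPKM in WT, at 1.93, 2.16 and 1.04 FPKM under the A20-KO label and at 58.7, 66.5 and 56.5 FPKM in A20-RE. A20-RE thus exceeded WT by a log2 fold change of 6.07 (SE 0.23) and is not a return to the WT level of this mRNA. Under the A20-KO label the transcript did not fall but was higher, with every value above every WT value (log2 fold change 0.95, SE 0.23). Every direction below rests on that label. A CRISPR cut can leave the mRNA in place, and the protein was not measured here. The study itself shows A20 expression of its knockout and rescue cells in a figure, which was not assessed here. EPCAM, KRT8, KRT18, KRT19, CDH1 and CDX2 were expressed in all 3 groups. VIL1 and CEACAM5, which also mark colorectal epithelium, were absent or near 0 in every group, at means of at most 0.0386 FPKM. The 5 leukocyte markers summed to 0.111 to 0.256 FPKM in WT, 0.0401 to 0.205 in A20-KO and 0.0149 to 0.19 in A20-RE, with 2 of 5 at 0 in all libraries of WT and of A20-RE. The 5 fibroblast and endothelial markers summed to 4.69 to 5.94 FPKM in WT, 12.7 to 15.3 in A20-KO and 11.4 to 12.5 in A20-RE, nearly all of it COL1A1, with group means of 5.32, 13.3 and 11.7 FPKM. The part of these markers in the results below was not tested. Libraries also deviated from their group in step with the GC content of the genes: the rank correlation across genes ran from -0.79 in WT replicate 1 to 0.78 in WT replicate 3 and was 0.48 in A20-KO replicate 3.

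The 93 genes together took 0.335, 0.311 and 0.273% of WT reads, 0.173, 0.179 and 0.129% under the A20-KO label, and 0.278, 0.306 and 0.251% in A20-RE. The 3 A20-KO shares lay below all the others, as the rule requires. Fewer cells expressing a gene and less RNA per cell cannot be told apart in bulk libraries. Among the 93 genes, 12 changed by at least 2-fold in both contrasts with 0.1 added to the group means: LCN2, FOXQ1, KRT6A, CYP24A1, RUNX2, IGFL2, GALNT5, ETS1, DPP4, POF1B, SLC16A6 and NRP1. The other 81 had smaller changes in 1 or both contrasts. With limma, a linear model on log2(FPKM + 0.1) with calls at a Benjamini-Hochberg adjusted p below 0.05 and an absolute log2 fold change above 1, 35 of the 93 were called lower in A20-KO against WT, where 2.08% of all 21636 genes tested were called lower and 4.91% higher. In A20-RE against A20-KO, 21 of the 93 were called higher, where 1.56% of all genes were called higher and 0.832% lower. Both contrasts were used to choose the genes, and nothing is read from these counts.

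**Figure D1:**
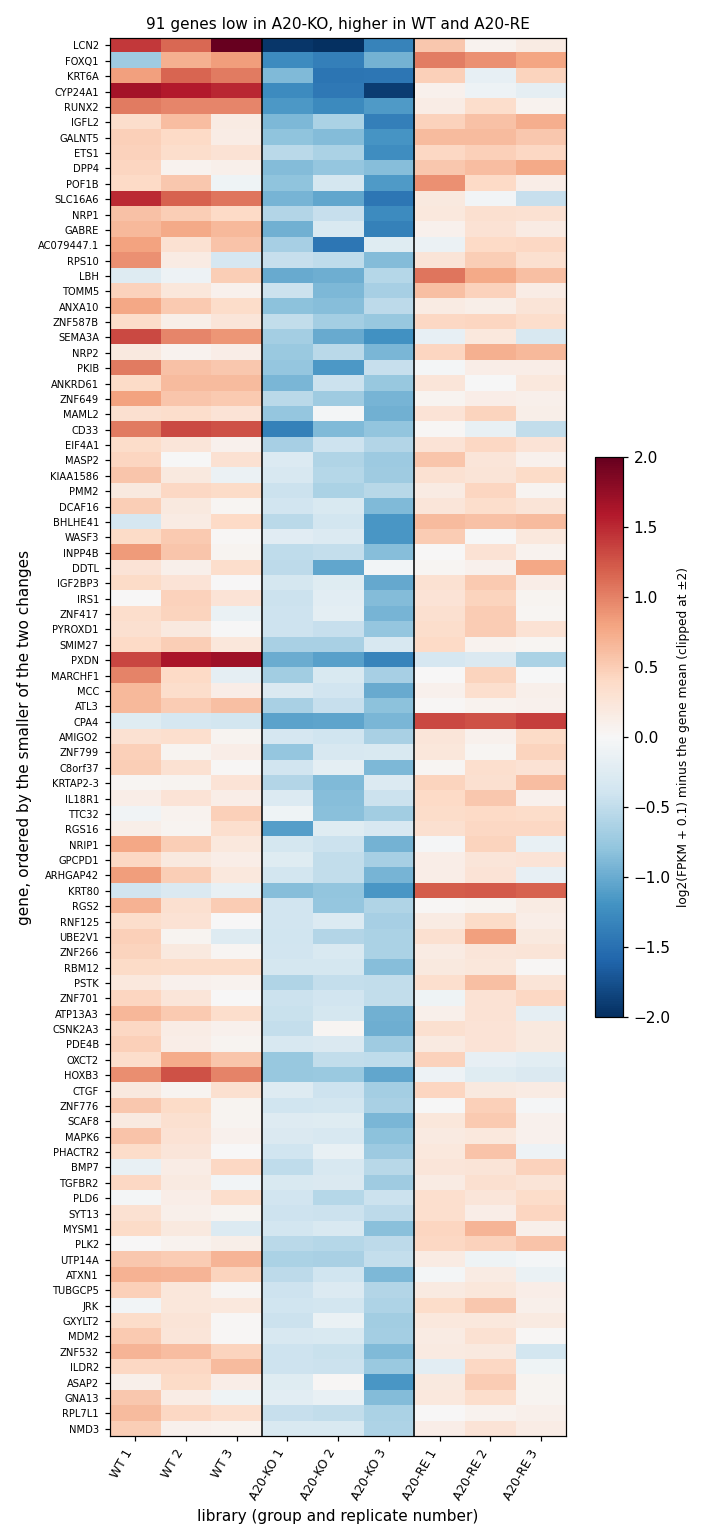
Heat map of 91 of the 93 genes (rows, ordered by the smaller of the changes in the 2 contrasts of the rule) in the 9 libraries (columns). Colour is log2(FPKM + 0.1) minus the gene's mean over the libraries, clipped at ±2, and the A20-KO columns are the lowest in every row because the rule requires it.

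Agreement between libraries was described by choosing genes on 2 libraries of each group and reading the libraries left out. Without replicate number 1, 104 genes were chosen, and in the left-out libraries A20-KO was the lowest of the 3 for 96 of them (92.3%), against 24.5% of all eligible genes. Without number 2, 141 of 149 genes (94.6%) kept that order, against 22.3%. Without number 3, 78 of 90 genes (86.7%) did, against 32.1%. The order of the groups was thus seen again in most genes in libraries not used to choose them. These libraries come from the same 3 groups of cells and may be technical repeats, so the shares describe agreement between libraries only. Eligible genes were not chosen for a difference, so repeats that agree would by themselves give the chosen genes the higher share. Both fold thresholds were passed in the left-out libraries by 36.5, 34.2 and 57.8% of the chosen genes, against 1.31, 0.962 and 2.63% of eligible genes. The left-out A20-KO and A20-RE libraries deviated from their groups together for numbers 2 and 3 (correlations across genes 0.51 and 0.54) and hardly for number 1 (0.011). For number 3, WT also deviated together with A20-KO (0.46) and A20-RE (0.27). For numbers 1 and 2 the correlations with WT ran from -0.16 to 0.095. The part of these shared deviations in the shares was not tested.

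Membership changed when single libraries were left out and after a correction for GC content. A20-KO replicate 3 was the lowest of its group for 64 of the 93 genes, where it was the lowest for 44.3% of eligible genes. Without A20-KO replicate 3 the rule gave 64 genes, of which 55 were among the 93, and without A20-KO replicate 2 it gave 162, of which 86 were. The 93 genes had a median GC content of 45.4%, against 49.4% for eligible genes. After a correction for GC content, 49 of the 93 still met the rule, with a median GC content of 47.2%, and 44 no longer did, with a median of 42.4%. All 12 genes with 2-fold changes in both contrasts, on the same scale with 0.1 added, were among the 49. The correction levels genes of like GC content across the libraries of all groups. It would therefore also remove a difference between groups that follows GC content. Whether GC content or A20-KO replicate 3 accounts for the membership of the other genes was not tested further. Next to the thresholds, ASAP2, JRK and GNA13 had A20-KO to WT ratios of 0.665, 0.662 and 0.659 and were inside, while ELF1, AK4 and GNAL, at 0.671, 0.674 and 0.676, were outside. For the return, NMD3, RPL7L1 and GNA13 were inside at ratios of 1.502, 1.503 and 1.503, and ZNF551, FAM217B and HACL1 were outside, the last 2 at 1.498 and 1.493. In all, 53 eligible genes failed only the first threshold, 195 only the second and 17 only the condition on overlap.

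Among secreted proteins, LCN2 (ENSG00000148346, GRCh38 chr9:128149071-128153455, plus strand) had the largest smaller-of-2 change. It was at 3.83, 3.16 and 5.73 FPKM in WT, 0.283, 0.255 and 0.483 FPKM under the A20-KO label, and 2.03, 1.44 and 1.55 FPKM in A20-RE. The 3 groups did not overlap, and A20-RE lay between the others. The WT mean was 12.5 times and the A20-RE mean 4.92 times the A20-KO mean, on 39 A20-KO reads summed over the 3 libraries. A20-RE remained below WT, with a log2 fold change of -1.26 (SE 0.27, limma adjusted p = 0.0068), a contrast on which the rule set no threshold.

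The promoter sequence of LCN2 is shown because this member had the largest smaller-of-2 change. That of CPA4 is shown because it rose furthest past WT, and that of CTGF because the gene stands on 2 of the gene lists described below. They are RefSeq sequences (GRCh38.p14) read 5′ to 3′ on the gene's strand up to the base before the annotated start, from chr9:128149265-128149452 (plus strand; bases that are exonic in another LCN2 transcript were left out), chr7:130292911-130293160 (plus strand) and chr6:131951373-131951622 (minus strand). Capitals mark matches, on either strand, to the NF-kB consensus, the AP-1 motif TGANTCA, the TATA motif TATAAA and the TEAD motif GGAATG.
LCN2: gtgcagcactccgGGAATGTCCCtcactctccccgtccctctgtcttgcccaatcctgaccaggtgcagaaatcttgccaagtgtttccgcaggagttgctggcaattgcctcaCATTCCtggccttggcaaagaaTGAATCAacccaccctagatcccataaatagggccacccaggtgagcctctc
CPA4: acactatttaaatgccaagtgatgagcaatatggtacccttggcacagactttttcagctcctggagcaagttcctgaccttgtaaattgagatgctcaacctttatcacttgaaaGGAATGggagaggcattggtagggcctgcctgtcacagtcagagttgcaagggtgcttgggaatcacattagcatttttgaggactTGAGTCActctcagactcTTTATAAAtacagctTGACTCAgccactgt
CTGF: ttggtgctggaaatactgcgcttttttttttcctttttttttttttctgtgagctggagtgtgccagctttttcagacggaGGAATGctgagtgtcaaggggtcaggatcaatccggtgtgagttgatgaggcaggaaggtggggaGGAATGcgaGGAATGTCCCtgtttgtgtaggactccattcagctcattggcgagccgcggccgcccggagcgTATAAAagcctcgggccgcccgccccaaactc
LCN2 held an NF-kB consensus match starting at -175 from the start, which overlapped a TEAD match, and an AP-1 match at -52. CPA4 held AP-1 matches at -48 and -15 on either side of a TATA match at -28. CTGF held an NF-kB consensus match at -95 overlapping a TEAD match, other TEAD matches at -169 and -104, and a TATA match at -32. Promoters of 300 bases, 250 of them before the start, were given for 69 of the 93 genes and for 9913 eligible genes. The NF-kB consensus was in 7 of the 69 (10.1%) and in 13.3% of all, AP-1 in 5 (7.25%) and 4.32%, TATA in 9 (13%) and 5.43%, and TEAD in 11 (15.9%) and 10.6%. Of the other motifs searched, ACGTG (HIF core) was in 26.1% of member promoters and 26.6% of all, CACGTG (E-box, which contains the HIF core) in 13% and 10%, TGACGTCA (CRE) in 2.9% and 3.29%, GGGCGG (GC box) in 62.3% and 71.7%, CACCC (KLF) in 68.1% and 63.7%, and TTCNNNGAA (STAT) in 7.25% and 5.97%. A match describes the letters only and is not evidence of binding.

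SEMA3A, a secreted semaphorin that repels growing axons and binds neuropilins, was at 3.64, 2.84 and 2.64 FPKM in WT, 0.83, 0.638 and 0.545 FPKM in A20-KO and 1.23, 1.62 and 1.1 FPKM in A20-RE. Of its difference between WT and A20-KO 27.3% was regained in A20-RE, and A20-RE was lower than WT (log2 fold change -1.15, SE 0.21, limma adjusted p = 0.0029). That call was lost after the GC correction, at -0.97. PXDN, the matrix enzyme peroxidasin that cross-links collagen IV, was at 4.29, 5.28 and 5.52 FPKM in WT, 0.775, 0.719 and 0.598 FPKM in A20-KO and 1.27, 1.32 and 1.02 FPKM in A20-RE. With 11.7% regained it showed the smallest return of the 93 genes, and it was lower in A20-RE than in WT (log2 fold change -1.98, SE 0.16, limma adjusted p = 5.3e-05).

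CPA4, a secreted carboxypeptidase, passed the WT level in A20-RE. It was at 16.4, 15.4 and 15 FPKM in WT, 9.23, 9.33 and 10.3 FPKM in A20-KO and 48.9, 47.1 and 50.8 FPKM in A20-RE, and the groups did not overlap. Its A20-RE mean was the highest group mean of the 93 genes, and A20-RE exceeded WT by a log2 fold change of 1.64 (SE 0.08, limma adjusted p = 5.9e-06). IGFL2, a small secreted protein of the insulin growth factor-like family, was low, with 23 A20-KO reads in all. It was at 0.465, 0.577 and 0.396 FPKM in WT, 0.136, 0.184 and 0.0707 FPKM in A20-KO and 0.511, 0.565 and 0.628 FPKM in A20-RE, where WT and A20-RE overlapped. CTGF (now CCN2), a matrix-associated growth regulator, was at 2.58, 2.33 and 2.84 FPKM in WT, 1.86, 1.65 and 1.36 FPKM in A20-KO and 3.05, 2.57 and 2.53 FPKM in A20-RE. The ligand BMP7 was at 2.64, 3.27 and 3.95 FPKM in WT, 2.03, 2.33 and 1.96 FPKM in A20-KO and 3.47, 3.5 and 4.06 FPKM in A20-RE. For both genes WT and A20-RE overlapped, and both left the group of 93 without A20-KO replicate 3.

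The keratin KRT6A (ENSG00000205420, GRCh38 chr12:52487174-52493257, minus strand) was at 0.454, 0.601 and 0.546 FPKM in WT, 0.0703, 0.0139 and 0.0147 FPKM in A20-KO and 0.336, 0.179 and 0.327 FPKM in A20-RE. These values rest on 33, 44 and 40 reads in WT, 5, 1 and 1 reads in A20-KO and 23, 13 and 22 reads in A20-RE. The groups did not overlap, 49.4% of the difference was regained, and A20-RE against WT gave -0.76 on the log2 scale (SE 0.32, limma adjusted p = 0.1). The limma-voom fit on recovered reads called KRT6A lower in A20-RE (log2 fold change -1.02, adjusted p = 0.041). Its near-identical paralogs KRT6B and KRT6C had group means of at most 0.0866 and 0.00985 FPKM, and reads could be split among the 3 genes.

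KRT80, an epithelial keratin, also passed the WT level in A20-RE. It was at 4.24, 4.53 and 4.99 FPKM in WT, 3.01, 3.15 and 2.41 FPKM in A20-KO and 13, 13.1 and 12.7 FPKM in A20-RE. A20-RE exceeded WT by a log2 fold change of 1.48 (SE 0.12, limma adjusted p = 4.8e-05), and KRT80 also left the group without A20-KO replicate 3. POF1B, an actin-binding protein of epithelial junctions, was at 0.53, 0.596 and 0.347 FPKM in WT, 0.174, 0.273 and 0.117 FPKM in A20-KO and 0.796, 0.53 and 0.421 FPKM in A20-RE. WT and A20-RE overlapped, on 55 A20-KO reads. The remaining gene of this kind, the keratin-associated KRTAP2-3, had group means of 6.28, 3.86 and 7.97 FPKM in WT, A20-KO and A20-RE.

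**Figure D2:**
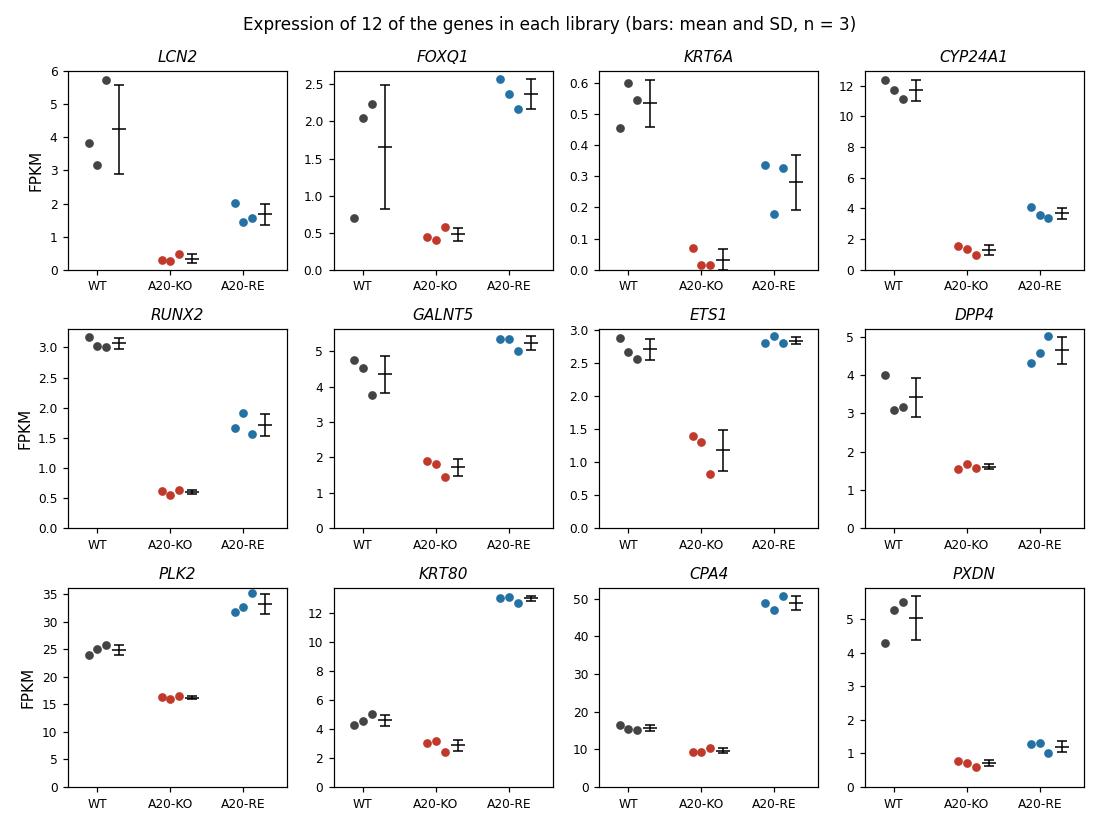
FPKM (y axis, from 0) of 12 of the genes in each library, by group (x axis), with the mean and SD of each group (n = 3) as bars. LCN2, CYP24A1, RUNX2 and PXDN in A20-RE stay between A20-KO and WT, while CPA4 and KRT80 lie above WT.

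Transcription factors and cofactors made up 12 of the 93 genes by a grouping of roles made after the values were seen. Roles were given to the 93 genes only, so the counts by role cannot be set beside eligible genes. FOXQ1, a forkhead factor active in colorectal tumours, was at 0.698, 2.05 and 2.23 FPKM in WT, 0.445, 0.405 and 0.576 FPKM in A20-KO and 2.57, 2.37 and 2.17 FPKM in A20-RE. WT replicate 1 stood far below the other WT libraries, close to the A20-KO values, and that library had the strongest GC deviation, while FOXQ1 has a GC content of 62.2%. The part of GC content in that value was not tested, and FOXQ1 still met the rule after the GC correction. WT and A20-RE overlapped. RUNX2, the runt factor of bone-forming cells, was at 3.17, 3.03 and 3.01 FPKM in WT, 0.618, 0.556 and 0.628 FPKM in A20-KO and 1.66, 1.92 and 1.56 FPKM in A20-RE. The spread within groups was small against the differences, 45% was regained, and A20-RE against WT gave -0.81 (log2, SE 0.13, limma adjusted p = 0.0018), under the fold threshold. ETS1, the founding ETS factor, was at 2.88, 2.67 and 2.56 FPKM in WT, 1.4, 1.3 and 0.822 FPKM in A20-KO and 2.81, 2.91 and 2.81 FPKM in A20-RE, where WT and A20-RE overlapped.

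HOXB3, a homeobox factor of positional identity, was at 1.68, 2.14 and 1.74 FPKM in WT, 0.447, 0.453 and 0.351 FPKM in A20-KO and 0.769, 0.686 and 0.66 FPKM in A20-RE. It regained 20% and was lower in A20-RE than in WT (log2 fold change -1.27, SE 0.17, limma adjusted p = 0.00073). HOXB3 left the group of 93 without A20-KO replicate 3. LBH, a developmental cofactor named here after its values were seen, was at 0.48, 0.545 and 0.877 FPKM in WT, 0.245, 0.251 and 0.365 FPKM in A20-KO and 1.36, 1.07 and 0.954 FPKM in A20-RE. Every A20-RE value lay above WT, with a log2 fold change of 0.77 (SE 0.26) under the fold threshold.

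Receptors and other surface proteins were 12 of the 93. DPP4, a surface dipeptidase that trims peptide hormones and chemokines, was at 4, 3.1 and 3.16 FPKM in WT, 1.56, 1.68 and 1.58 FPKM in A20-KO and 4.32, 4.57 and 5.02 FPKM in A20-RE. All A20-RE values lay above WT, with a log2 fold change of 0.43 (SE 0.13, limma adjusted p = 0.031), under the fold threshold. SLC16A6, a monocarboxylate transporter family member, was at 3.88, 3.11 and 2.9 FPKM in WT, 0.648, 0.591 and 0.423 FPKM in A20-KO and 1.52, 1.27 and 0.932 FPKM in A20-RE. It regained 25% and was lower in A20-RE than in WT (log2 fold change -1.36, SE 0.22, limma adjusted p = 0.0017). CD33, a sialic acid-binding receptor known from myeloid cells, was at 0.924, 1.15 and 1.1 FPKM in WT, 0.0964, 0.17 and 0.187 FPKM in A20-KO and 0.408, 0.351 and 0.255 FPKM in A20-RE. A20-RE was lower than WT (log2 fold change -1.41, SE 0.25, limma adjusted p = 0.0028). The leukocyte marker sums given above did not exceed 0.256 FPKM in any library, and CD33 no longer met the rule after the GC correction.

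NRP1 and NRP2, the neuropilins that bind class 3 semaphorins and VEGF, were both members and are named after their values were seen. NRP1 was at 1.14, 1.07 and 0.986 FPKM in WT, 0.45, 0.498 and 0.246 FPKM in A20-KO and 0.861, 0.93 and 0.925 FPKM in A20-RE. NRP2 was at 0.435, 0.389 and 0.414 FPKM in WT, 0.181, 0.222 and 0.148 FPKM in A20-KO and 0.532, 0.67 and 0.636 FPKM in A20-RE. NRP1 in A20-RE lay below every WT value and NRP2 above, but neither difference was called (log2 fold change -0.21 and 0.47, limma adjusted p = 0.53 and 0.14). TGFBR2, the TGF-beta type II receptor, and IL18R1, the IL-18 receptor chain, had WT, A20-KO and A20-RE means of 7.88, 5.1 and 8.15 FPKM and of 0.58, 0.325 and 0.665 FPKM. Both no longer met the rule after the GC correction.

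Of 11 metabolic and glycosylation genes, CYP24A1 had the largest smaller-of-2 change. It encodes the mitochondrial hydroxylase that inactivates vitamin D (ENSG00000019186, GRCh38 chr20:54153449-54173973, minus strand). It was at 12.4, 11.7 and 11.1 FPKM in WT, 1.55, 1.37 and 0.961 FPKM in A20-KO and 4.07, 3.59 and 3.39 FPKM in A20-RE. The WT mean was 9.07 times and the A20-RE mean 2.84 times the A20-KO mean, so 22.8% of the difference was regained, and A20-RE was below WT (log2 fold change -1.65, SE 0.17, limma adjusted p = 0.00014). GALNT5, which starts mucin-type O-glycans, was at 4.74, 4.52 and 3.77 FPKM in WT, 1.91, 1.81 and 1.45 FPKM in A20-KO and 5.34, 5.33 and 4.99 FPKM in A20-RE. A20-RE lay above all WT values without a call (log2 fold change 0.27, SE 0.14, limma adjusted p = 0.18).

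Signalling and cytoskeletal genes were the largest role by that grouping, with 17 members and no call in A20-RE against WT. In that contrast 83 of all 93 genes were not called, so nothing is read from this count. PLK2, a polo-like kinase induced by p53, was at 23.9, 25 and 25.7 FPKM in WT, 16.3, 15.9 and 16.5 FPKM in A20-KO and 31.7, 32.7 and 35.2 FPKM in A20-RE. Its replicates were tight and its groups apart, with A20-RE above WT by a log2 fold change of 0.41 (SE 0.08, limma adjusted p = 0.0038), under the fold threshold. GNA13, a G protein alpha subunit, was at 27.1, 20.8 and 17.7 FPKM in WT, 16.1, 16.9 and 10.2 FPKM in A20-KO and 21.7, 23.8 and 19.5 FPKM in A20-RE. It spread widely within groups, stood at both thresholds, and no longer met the rule after the GC correction or without A20-KO replicate 3. RGS16 and RGS2, which speed GTP hydrolysis on G alpha subunits, had WT, A20-KO and A20-RE means of 4.02, 2.48 and 4.68 FPKM and of 8.82, 4.1 and 6.53 FPKM. IRS1, the insulin receptor substrate, had means of 15.9, 9.52 and 16 FPKM. Of these 3, named after their values were seen, RGS16 still met the rule after the GC correction.

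Among RNA and ribosome genes, RPL7L1, a ribosome assembly protein related to RPL7, was at 36.4, 31.4 and 29.7 FPKM in WT, 17, 16.7 and 15.1 FPKM in A20-KO and 23.6, 24.6 and 25.3 FPKM in A20-RE. NMD3, the export adaptor of the large ribosomal subunit, was at 28.8, 21.7 and 21.4 FPKM in WT, 16.5, 16.5 and 13.2 FPKM in A20-KO and 22.3, 24.7 and 22.6 FPKM in A20-RE. RBM12, an RNA-binding protein, was at 20.9, 20.6 and 20.7 FPKM in WT, 12.5, 12.5 and 8.79 FPKM in A20-KO and 18.3, 18.8 and 16.2 FPKM in A20-RE. These were among the 6 genes with the highest group means, and all 3 left the group without A20-KO replicate 3. RPL7L1 and NMD3 also failed the rule after the GC correction, and RBM12 still met it. The ubiquitin system had 5 members. MDM2, the ubiquitin ligase of p53, was at 14.2, 11.7 and 10 FPKM in WT, 7.88, 7.95 and 6.08 FPKM in A20-KO and 11, 12.2 and 10 FPKM in A20-RE, and it failed the rule after the GC correction and without A20-KO replicate 3. MARCHF1, a membrane ubiquitin ligase listed in the table under a name damaged by a spreadsheet, had means of 0.55, 0.219 and 0.419 FPKM.

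C2H2 zinc finger proteins, DNA-binding factors many of which repress retroelements, were 8 of the 93 genes (8.6%) and 3.24% of eligible genes. Of the 8, 7 lay on chromosome 19, but the share of eligible zinc finger genes on that chromosome was not counted. Chromosome 19 held 9.68% of all members and 7.6% of eligible genes. ZNF587B and ZNF649, with WT, A20-KO and A20-RE means of 2.38, 1.24 and 2.66 FPKM and of 0.897, 0.288 and 0.586 FPKM, still met the rule after the GC correction, as did ZNF417, and the other 5 did not. Zinc finger genes of this chromosome are alike in sequence, so reads could be split among them. The table's transcription factor column marked 14 of the 93 (15.1%) and 7.99% of eligible genes. Members lay on 22 chromosomes, with none on chromosome 14 and no 2 members next to each other among eligible genes. Members were expressed at a lower level than other genes, with a median of 2.09 FPKM against 6.04 FPKM, and 16 had fewer than 100 A20-KO reads. Their median length was 5162 bases, against 5006. For 9 members at least 20% of exon bases were shared with another gene, among them EIF4A1 (48.6%), UBE2V1 (42.9%) and RPS10 (39.4%) on the same strand, whose values are uncertain for that reason.

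How far the members came back was compared with WT in the contrast A20-RE against WT, on which the rule set no threshold. The rule does require both groups to exceed A20-KO, and all contrasts here share libraries with one another. On a log scale this contrast is also the sum of the 2 contrasts on which the rule set thresholds. The share regained is built from the same 2 differences. It uses WT as the reference, although TNFAIP3 mRNA in A20-RE was far above WT. The medians, shares and counts below are therefore partly set by the choice of genes. The share of the difference regained had a median of 97.1% and ran from 11.7% (PXDN) to 655% (CPA4). It was under 50% for 18 genes, from 50% up to 100% for 31, and 100% or more for 44, of which 12 reached 150%. Of the 93 genes, 8 were called lower in A20-RE than in WT, among them PXDN, CYP24A1, CD33, SLC16A6, HOXB3, LCN2 and SEMA3A. Another 2, CPA4 and KRT80, were called higher, and 83 were not called. In each of the 10 called genes all 3 A20-RE values lay on the same side of all 3 WT values. This is 8.6% lower and 2.15% higher, where 5.49% and 7.25% of the 12262 eligible genes and 4.21% and 7.68% of all genes tested were called. After the GC correction the calls over all genes changed from 1661 higher and 910 lower to 1285 higher and 1304 lower, while 7 members were still called lower and 2 higher. At an adjusted p below 0.05 alone, 15 members were lower and 5 higher, 21.5% together, against 43.9% of eligible genes. The median standard error of the members was 0.194 and that of eligible genes 0.153 on the log2 scale. All A20-RE values lay above all WT values for 10 members (10.8%; 26.1% of eligible genes) and below for 25 (26.9%; 32.4%), and 58 overlapped. The median log2 fold change was -0.01 for the members and -0.06 for eligible genes.

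The members were set beside 15 gene lists of pathways and cell functions. LCN2 was the 1 member on the epithelial defence list, KRT6A and KRT80 were on the keratin and cornified envelope list, PLK2 and MDM2 on the p53 list, CTGF on the immediate early and YAP and TEAD lists, and BMP7 on the ligand list. No member was on the lists of NF-kB targets, calcium binding, interferon-stimulated, integrated stress response, cholesterol, Wnt, junction or cell cycle genes. The NF-kB list did not hold LCN2, although NF-kB is among the pathways named above for it. The absence of members from that list thus depends on how it was drawn up. Counts for the other genes of these lists are given beside the shares of all genes called, stated above. Of 34 other keratin and envelope genes tested, 14 were called higher and 1 lower in A20-KO against WT, and 7 were called higher and 0 lower in A20-RE against A20-KO. KRT7, a simple epithelial keratin, had means of 2.95, 6.98 and 24.1 FPKM in WT, A20-KO and A20-RE. Of 35 hypoxia genes outside the 93, 7 were higher in A20-KO against WT and 8 higher in A20-RE against A20-KO, with none lower in either. Of 34 other NF-kB targets, 2 were higher and 1 lower in A20-KO against WT, and 0 were higher and 2 lower in A20-RE against A20-KO. ICAM1, an adhesion molecule that NF-kB induces, had means of 2.25, 0.71 and 0.678 FPKM. It was called lower in the first of these contrasts, and the second gave -0.06 on the log2 scale (SE 0.19, limma adjusted p = 0.89). Of 31 other p53 targets, 1 was higher and 1 lower in A20-KO against WT, and 1 was lower in A20-RE against A20-KO. Of 16 other epithelial defence genes, 2 were higher in A20-KO against WT and none was called in A20-RE against A20-KO. Of 26 other YAP and TEAD targets, 2 were lower in the first contrast and 1 higher in the second. Of 45 other immediate early genes, 10 were higher in the first, and 1 was higher and 2 lower in the second. Of 43 other ligands, 11 were higher and 4 lower in the first, and 2 were higher and 3 lower in the second. On the lists without a member, higher and lower calls in the first contrast numbered 4 and 1 of 31 calcium-binding genes, 4 and 1 of 37 interferon-stimulated genes, 3 and 1 of 35 stress response genes, 2 and 0 of 31 cholesterol genes, 3 and 1 of 20 Wnt targets and 10 and 2 of 59 junction genes. In the second contrast they numbered 2 and 0, 2 and 1, 0 and 2, 0 and 3, 0 and 3, and 2 and 0 in the same order. Of 45 cell cycle genes, 16 were lower in A20-KO against WT, none was called in A20-RE against A20-KO, and 33 were lower in A20-RE against WT.

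STC1, the secreted glycoprotein stanniocalcin 1, had the shape of the members but not their level. It was at 0.204, 0.193 and 0.212 FPKM in WT, 0.0298, 0.0196 and 0 FPKM in A20-KO and 0.124, 0.175 and 0.126 FPKM in A20-RE, on 21, 20 and 22 reads, then 3, 2 and 0 reads, then 12, 18 and 12 reads. Its highest mean, 0.203 FPKM, was under the minimum, and with a minimum of 0.1 FPKM it was 1 of 107 genes that met the rule. All its A20-KO libraries were at or under 3 reads, so no fold against A20-KO is given.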

How the data were processed

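Poly-A selected RNA of HCT116 cells was sequenced as 150 bp paired ends in 9 libraries, 3 for each of the groups WT, A20-KO and A20-RE. The submitters' processing notes name HISAT2 2.0.5 and featureCounts 1.5.0-p3, and the authors deposited FPKM per gene. The build was not given in the sources used here; the coordinates were equal to those of GENCODE 29 (GRCh38) for 100% of the 58735 genes. Because FPKM is not a count, tests were made by limma 3.58.1 (R 4.3.3), with log2(FPKM + 0.1) as the value and a trended variance, for genes whose mean FPKM reached 0.1, in one fit of all 3 groups. Fold changes on this scale understate changes of low genes. Whole reads were recovered from FPKM and length (100% whole within 0.05), without molecular identifiers, so they show counting error only. The fit was tested on simulated counts with the same dispersion for every gene and no GC deviation. Changed genes were simulated only among those with more reads, so that test does not cover genes of few reads or the GC deviations seen here.

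The members and gene lists were chosen with earlier results of these data known. Genes were named if they were TNFAIP3, LCN2, KRT6A, STC1, KRT6B or KRT6C, stood on a list, had the 10 largest smaller-of-2 changes or the 6 highest group means, were called in A20-RE against WT, or lay next to a threshold; others are named as chosen after their values were seen. Alternatives were other pseudocounts, filters, scalings, the replicate block, limma-voom on recovered reads and leaving out libraries; a GC content correction in 50 bins and a limit on exon sharing were added after seeing the data. Some members are not reported here by name and are left out of the figures, though the counts include them.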

Additional observations from a re-analysis of the deposited data

How the results depend on the processing

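The number of genes meeting the rule, 93, was 22 with 1 added to the means in place of 0.1, 12 at 2-fold in both contrasts and 175 with all biotypes, that is 82 noncoding genes more. It ran from 64 to 162 when 1 library or 1 replicate number was left out; A20-KO replicate 2 alone (162) and replicate number 2 (149) moved it by over 1.5 times. It stayed within 1.5 times of 93 in the other 18 of 23 alternatives, among them 93 with median-of-ratios scaling, 81 with recovered reads scaled to the total (78 shared), 69 with the GC correction (49 shared) and 84 without genes sharing 20% of exon bases. Genes called lower in A20-RE against WT numbered 2 with a pseudocount of 1, 5 with a mean FPKM of at least 1 and 15 with no fold threshold, against 8; those called higher numbered 5 with no fold threshold, against 2. Leaving out any 1 library gave 8 lower and 2 higher each time, and so did the replicate block. The deviations of same-numbered libraries (replicates 1, 2 and 3) had correlations of -0.16, 0.049 and 0.27 between WT and A20-RE, 0.095, -0.029 and 0.46 between WT and A20-KO, and 0.011, 0.51 and 0.54 between A20-KO and A20-RE. Not all were over 0.1 in any pair of groups, so the numbers were not taken to pair libraries, though replicates 2 and 3 of A20-KO and A20-RE each correlated best with their own number. For the 10 called genes and KRT6A, 197 of 205 alternatives kept direction and call, 7 lost the call (6 with a pseudocount of 1) and none reversed. Many of these alternatives could not change the fold change of A20-RE against WT. Leaving out an A20-KO library, the filters, the replicate block and fits without A20-KO or the variance trend alter only its error and adjusted p. For those settings a reversal was not possible, so these counts overstate how far the fold changes were tried. Genes of few reads limit the precision: 16 of the 93 had fewer than 100 A20-KO reads.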
